A study of Mus musculus with 41 samples.

Results

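The 10 neutrophil granule genes described here were the rows of the mouse tibia count table with the symbols Elane, Mpo, Prtn3, Ctsg, Ltf, Camp, Ngp, Lcn2, S100a8 and S100a9, which is 10 of the 43346 genes in the table. They were chosen by name as textbook neutrophil genes. Bulk RNA-seq had been performed on tibiae of 41 female mice that carried the INK-ATTAC transgene on a C57BL/6 background, in which the p16Ink4a promoter drives a caspase that the drug AP20187 (AP) switches on. There were 12 young mice (6 to 12 months by the labels, 6 months by the methods), 13 old mice injected with vehicle (old vehicle) and 16 injected with AP at 10 mg per kg in 2 doses a week (old AP). The labels give the age of the old mice as 20 months, and in both old groups injections began at 20 months and went on for 4 months, which puts the end at 24 months of age. All groups carried the transgene, and the labels give vehicle as the treatment of the young mice too, with no schedule of their own. The transgene is not limited to 1 cell type, and no group of mice without it was among the samples.

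Neutrophils are made in the bone marrow and store their antimicrobial proteins in granules that form in a fixed order. Primary (azurophil) granules are filled first, in the promyelocyte, with the serine proteases neutrophil elastase (Elane), proteinase 3 (Prtn3) and cathepsin G (Ctsg) and with myeloperoxidase (Mpo), the enzyme that makes hypochlorous acid. Secondary (specific) granules are filled later, in myelocytes and metamyelocytes, with the iron-binding protein lactoferrin (Ltf), the cathelicidin precursor (Camp), neutrophilic granule protein (Ngp) and lipocalin 2 (Lcn2), which binds bacterial siderophores. S100a8 and S100a9 form calprotectin, a calcium- and metal-binding protein of the cytosol rather than of the granules, and they are transcribed into late maturation. The first 4 genes are therefore called early here, the 4 secondary granule genes late, and the S100 pair is kept apart. The tibiae had been spun in a centrifuge to clear the marrow before RNA was extracted, so that these transcripts came from cells left in or on the bone. In bulk RNA a change in the number of neutrophils and a change in the RNA of each neutrophil cannot be told apart.

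Each gene was placed on GRCm38 as in the table. Elane (ENSMUSG00000020125) lies on chromosome 10 from 79886312 to 79888216, and Prtn3 (ENSMUSG00000057729) on the same chromosome from 79874476 to 79883174, with a gap of 3138 bases between them. Mpo (ENSMUSG00000009350) is on chromosome 11 from 87793581 to 87804413 and Ctsg (ENSMUSG00000040314) on chromosome 14 from 56099881 to 56102574. On chromosome 9, but not as neighbours, lie the late genes Camp (ENSMUSG00000038357, 109847377 to 109849456), Ngp (ENSMUSG00000032484, 110419808 to 110423010) and Ltf (ENSMUSG00000032496, 111019292 to 111042766). Lcn2 (ENSMUSG00000026822) is on chromosome 2 from 32384633 to 32388252. The S100 pair lies on chromosome 3, S100a8 (ENSMUSG00000056054) from 90669071 to 90670034 and S100a9 (ENSMUSG00000056071) from 90692632 to 90695721. Prtn3 overlaps Lppr3, a gene with 41324 counts over all mice, and the strand setting of the counting is not given in the sources used here, so the Prtn3 values are less certain than the rest. Mpo overlaps Gm11505, which holds 139 counts in all mice together, and the other members overlap no gene of the table.

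The 10 genes move together across mice, so sequence upstream of their starts is shown for 5 of them, 2 early, 2 late and S100a9, as RefSeq gives it for GRCm38.p6. All 10 genes matched a RefSeq window, and the 5 shown have the longest upstream stretches free of annotated exons, leaving out Prtn3, which overlaps another gene. Capitals mark matches on either strand to TTNNGNAA, a short form of the site bound by C/EBP factors, and to GAGGAA, a core bound by PU.1 and other ETS factors. The stretches of Elane, Ltf and Ngp stop 66, 22 and 62 bases before the start. A further TTNNGNAA match of Ngp, 11 bases before its start, is thus not shown. The stretches are chr10:79886062-79886246, plus strand (Elane), chr14:56102575-56102824, minus strand (Ctsg), chr9:111019042-111019270, plus strand (Ltf), chr9:110419558-110419746, plus strand (Ngp) and chr3:90695722-90695971, minus strand (S100a9), each written 5′ to 3′ along the strand of its gene.
Elane: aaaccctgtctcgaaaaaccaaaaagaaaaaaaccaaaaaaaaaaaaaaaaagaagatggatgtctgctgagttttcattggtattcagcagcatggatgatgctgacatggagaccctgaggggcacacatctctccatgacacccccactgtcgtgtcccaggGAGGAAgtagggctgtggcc
Ctsg: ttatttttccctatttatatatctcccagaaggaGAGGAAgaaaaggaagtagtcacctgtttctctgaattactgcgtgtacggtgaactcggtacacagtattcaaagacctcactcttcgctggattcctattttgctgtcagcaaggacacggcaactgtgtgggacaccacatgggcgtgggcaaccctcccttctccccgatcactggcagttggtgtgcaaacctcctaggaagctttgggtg
Ltf: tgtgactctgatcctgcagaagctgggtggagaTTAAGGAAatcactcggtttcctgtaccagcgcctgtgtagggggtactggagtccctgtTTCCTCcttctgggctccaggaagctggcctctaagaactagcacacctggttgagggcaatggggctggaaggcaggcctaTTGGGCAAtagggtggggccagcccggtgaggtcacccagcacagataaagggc
Ngp: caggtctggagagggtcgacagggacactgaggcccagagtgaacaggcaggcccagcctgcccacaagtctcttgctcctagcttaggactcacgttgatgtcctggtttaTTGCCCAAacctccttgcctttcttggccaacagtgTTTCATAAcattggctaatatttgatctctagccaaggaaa
S100a9: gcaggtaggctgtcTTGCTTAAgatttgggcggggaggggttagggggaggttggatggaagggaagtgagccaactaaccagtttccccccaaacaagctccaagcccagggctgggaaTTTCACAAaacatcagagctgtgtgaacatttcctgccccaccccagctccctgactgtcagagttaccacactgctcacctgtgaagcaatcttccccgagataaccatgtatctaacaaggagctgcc
In the 250 bases upstream of the start, TTNNGNAA was found in 0 of the 4 early genes and in 5 of the 6 others (Ltf, Ngp, Lcn2, S100a8 and S100a9, not Camp). Over 32841 windows of the same length, 36.9% held a match. GAGGAA was found in 4 of 4 early genes and in 3 of the 6 others (Ltf, Lcn2 and S100a8), against 23.3% of all windows, and no match to one motif overlapped a match to the other. The counts use the full 250 bases, which in some genes lie partly in annotated exons. Read from the far end, the exon-free run was 0 bases in Lcn2 and 47 in Mpo. The Prtn3 window, from 79879417 on, lies inside the gene span given above. A match is a stretch of letters, not a bound site, and these counts are given as a description.

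Several of the granule genes were among the most abundant transcripts of the bone. Per kilobase of exon, S100a9 had the highest mean level of all 19292 tested genes, 8280 CPM per kb (CPM, counts scaled for library depth), and S100a8 was in place 3 with 5695 CPM per kb. On the same per-length scale Ngp (2865, place 11), Camp (1880, place 18) and Ltf (823, place 46) came next. Lcn2 (387, place 123), Elane (313, place 145), Mpo (277, place 161), Ctsg (126, place 378) and Prtn3 (117, place 416) followed. The order S100, late, early thus held for all members in the mean over mice, but not every step was larger than the spread between mice. The steps from Lcn2 to Elane to Mpo and from Ctsg to Prtn3 were smaller than the larger SD of the genes compared in all 3 groups, and those from S100a9 to S100a8 and from Ngp to Camp in both old groups. Together the 10 genes took 1.29 ± 0.458% of all counted reads (SD, n = 12) in the young group, 1.57 ± 0.625% (SD, n = 13) in the old vehicle group and 1.89 ± 0.840% (SD, n = 16) in the old AP group. The spread within each group was wide, with a share of 0.758 to 2.31% among young, 0.455 to 2.79% among old vehicle and 0.872 to 3.89% among old AP mice. Between the highest and the lowest of the 41 mice, single members differed from 4.94-fold (Lcn2) to 8.42-fold (Prtn3).

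Total counts per mouse were 37028959 to 75942717, and the smallest count of any member in any mouse was 1823 (Ctsg), so counting error is small beside the spread between mice. CPM values were scaled by edgeR's TMM factors. The markers of the labelled tissue were present in all mice, with Sost, the osteocyte gene that encodes sclerostin, at 1907 counts or more, and Ly6g, the defining surface marker of mouse neutrophils, at 706 to 7625 counts. Old AP mice 18 and 19 stood apart, with summed osteocyte markers (Sost, Dmp1, Phex, Mepe) of 273 and 283 CPM against 905 CPM or more in the other mice, and they ranked 3 and 1 of 16 in the summed granule genes. Old vehicle mouse 16 had the lowest granule gene sum of its group, 5252 CPM. Skeletal muscle transcripts (Acta1, Ckm, Myh4, Tnnt3, Mylpf) also varied, from 5008 to 73100 CPM in sum. The log2 sum of the 10 granule genes ran against that of muscle, with r = -0.59 and rho = -0.54 over 41 mice, r = -0.80 in the 12 young, -0.41 in the 13 vehicle and -0.79 in the 16 AP mice, and r = -0.52 without mice 7 and 19. These CPM sums share library size and a fixed total, and the correlations are descriptions.

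The first comparison asks how the granule genes differ with age, in old vehicle against young mice. All 10 fold changes were positive, but 0 of 10 genes passed the test, which required an adjusted p under 0.05 (Benjamini-Hochberg over all 19292 genes, edgeR's quasi-likelihood test) and a log2 fold change beyond 0.5. Of all tested genes, 4.3% were called higher and 4.76% lower in this comparison. DESeq2 also called 0 of 10. The median log2 fold change of the 10 was 0.39 (0.31 to 0.57), against 0.00663 over all tested genes, and adjusted p ran from 0.118 to 0.32.

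Among the early genes, Mpo was at 315 CPM in the lowest, 643 in the median and 1184 in the highest young mouse, and at 366, 894 and 1820 CPM in old vehicle mice. The groups overlapped over most of their range, and of 13 old mice 2 were outside the young range and 10 above its median. On the log2 scale the change was 0.55 (95% interval 0.06 to 1.03, SE 0.247, adjusted p = 0.118). Elane was at 91.4, 200 and 439 CPM (lowest, median, highest) in young and at 129, 308 and 517 CPM in old vehicle mice (log2 fold change 0.50, adjusted p = 0.144). Prtn3, its neighbour on chromosome 10, was at 50.7, 149 and 314 CPM in young and 85.3, 229 and 409 CPM in old vehicle mice. It had the largest fold change of the 10 here, 0.57 on the log2 scale (SE 0.272, adjusted p = 0.137). Ctsg was at 51.3, 84.6 and 174 CPM in young and at 44.1, 111 and 272 CPM in old vehicle mice (log2 fold change 0.46, adjusted p = 0.214), so that its lowest value was that of an old mouse.

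The late genes had smaller log2 fold changes, and none passed the test. Ltf was at 1223, 1565 and 2757 CPM (lowest, median, highest) in young mice and at 703, 2327 and 3936 CPM in old vehicle mice, so that the old group extended beyond the young group at both ends. Its log2 fold change was 0.38 (95% interval -0.02 to 0.79, adjusted p = 0.198), with 11 of 13 old mice above the young median. Camp was at 604, 879 and 1673 CPM in young and 424, 1308 and 1728 CPM in old vehicle mice (log2 fold change 0.37, adjusted p = 0.194). The lowest value was again that of mouse 16, which was lowest of its group in 9 of the 10 genes. Ngp was at 1753, 2330 and 4193 CPM in young and 1045, 3324 and 5419 CPM in old vehicle mice (log2 fold change 0.33, adjusted p = 0.272). Lcn2 was at 542, 740 and 1325 CPM in young and 399, 1079 and 1879 CPM in old vehicle mice (log2 fold change 0.40, adjusted p = 0.175).

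S100a8 and S100a9, the most abundant members per kilobase, had the smallest log2 fold changes, 0.31 and 0.32 (adjusted p = 0.32 and 0.304). S100a9 was at 2229, 3014 and 5594 CPM in young and 1345, 4146 and 7395 CPM in old vehicle mice, and S100a8 at 1161, 1585 and 2732 CPM against 699, 2136 and 3943 CPM. By class, the log2 fold changes were 0.46 to 0.57 for the early genes, 0.33 to 0.40 for the late genes and 0.31 to 0.32 for the S100 pair. The difference between the classes was not tested. Here the call depended on how muscle was handled. With the muscle score as a covariate, 7 of 10 genes (all 4 early genes, Ltf, Camp and Lcn2) were called higher, with log2 fold changes of 0.53 to 0.81, against 4.66% of all genes called higher in that fit. The summed muscle markers had a median of 27680 CPM in young and 40160 CPM in old vehicle mice, and their part in the result was not tested further.

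**Figure D1:**
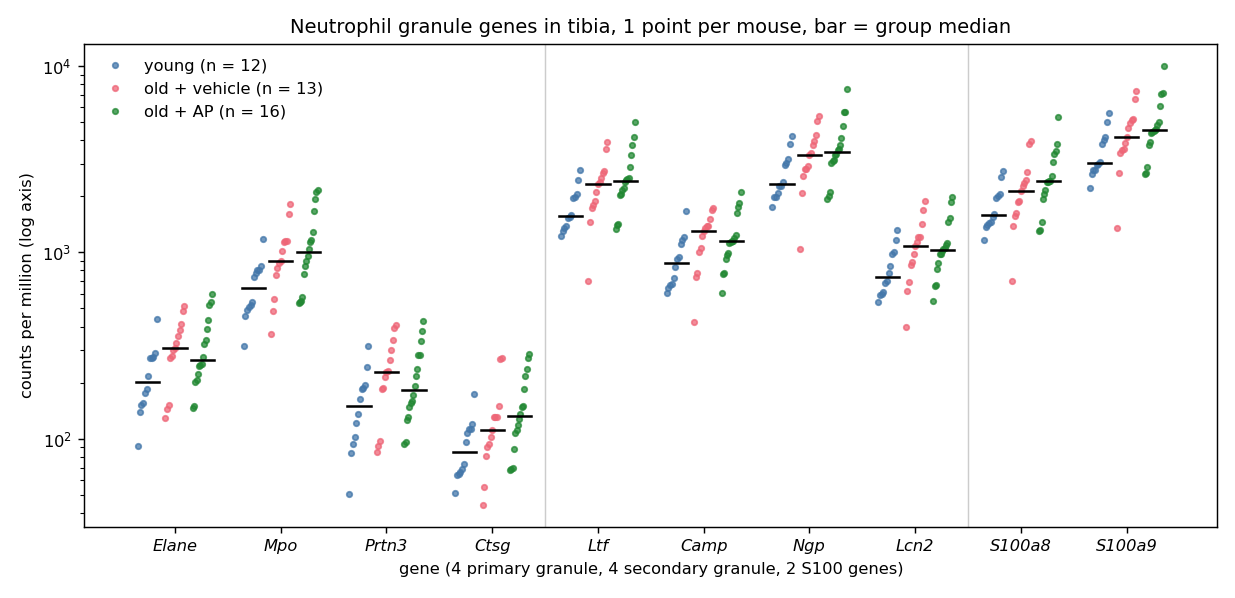
CPM of the 10 granule genes on a log axis, 1 point per mouse for young (n = 12), old vehicle (n = 13) and old AP (n = 16) mice, with a black bar at the group median. The median of each old group lies above the young median for each gene, and the ranges overlap for all 10.

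The second comparison set old AP mice against young mice. It shares its 12 young mice with the first comparison, so the values of both are given side by side and their likeness is no separate result. All 10 fold changes were positive, and 3 of 10 genes (Mpo, Ctsg and Ltf) were called higher, against 3.73% of all tested genes called higher and 4.85% called lower. Over the 10, the median was 0.52 on the log2 scale (0.38 to 0.77), against 0.01671 over all tested genes.

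Mpo rose most. It was at 534, 1005 and 2154 CPM (lowest, median, highest) in old AP mice against 315, 643 and 1184 CPM in young mice, a rise of 0.77 on the log2 scale (95% interval 0.30 to 1.24, SE 0.239, adjusted p = 0.0214, edgeR). Of the 16 treated mice, 5 lay outside the young range and 12 above the young median. Ctsg was at 67.5, 132 and 286 CPM in the treated mice and rose by 0.69 on the log2 scale (95% interval 0.20 to 1.18, adjusted p = 0.048). Ltf, the called member among the late genes, was at 1328, 2415 and 4998 CPM and rose by 0.56 (95% interval 0.17 to 0.95, adjusted p = 0.0445). In each of these genes the groups overlapped, and 13 of 16 treated mice lay above the young median for Ctsg and for Ltf.

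The other 7 genes did not pass. S100a8 came nearest, at 1305, 2404 and 5328 CPM (log2 fold change 0.55, adjusted p = 0.056), and S100a9 was at 2623, 4534 and 10030 CPM (0.49, adjusted p = 0.0813). Among the late genes, Ngp was at 1946, 3472 and 7539 CPM (0.51, adjusted p = 0.0668), Lcn2 at 547, 1029 and 1972 CPM (0.43, adjusted p = 0.119) and Camp at 607, 1149 and 2114 CPM (0.38, adjusted p = 0.155). Elane and Prtn3, the chromosome 10 pair, were at 145, 263 and 596 CPM (0.53, adjusted p = 0.107) and at 93.4, 182 and 427 CPM (0.46, adjusted p = 0.222). The early genes thus held both the largest and one of the smaller changes of the list.

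The calls against young mice depended on which mice were included and on the processing. Ctsg and Ltf were not called with total counts in place of TMM (adjusted p = 0.0639 and 0.0609) or without the filter on low counts (0.0705 and 0.0704), and Ltf fell below the fold change threshold with the muscle covariate (0.45). Without old AP mice 18 and 19, 0 of 10 genes were called, while 2.61% of all genes were called higher in that fit. Mpo was then at 0.61 on the log2 scale (adjusted p = 0.0758), Ctsg of 0.53 (adjusted p = 0.149) and Ltf of 0.40 (adjusted p = 0.158), and all 10 values stayed positive, from 0.24 (Camp) to 0.61. With 1 mouse left out at a time, the count ran from 1 to 6. Mpo was called in all 41 such fits (adjusted p 0.0122 to 0.047), Ctsg was lost in 28 of 41 and Ltf in 16 of 41.

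The third comparison asks what AP treatment changed among old mice, and it shares the vehicle mice with the first comparison. In old AP against old vehicle mice, 0 of 10 genes were called by edgeR or DESeq2 and 0 had an unadjusted p under 0.05. Calls were rare in this comparison, with 0.0259% of all tested genes higher and 0.0467% lower. The log2 fold changes ran from -0.12 (Prtn3, 95% interval -0.61 to 0.38) to 0.23 (S100a8, 95% interval -0.15 to 0.62), with a median of 0.18 and adjusted p from 0.468 to 0.969. Mpo had 0.23 (95% interval -0.22 to 0.68), Elane 0.03 (95% interval -0.41 to 0.46) and Camp 0.01 (95% interval -0.34 to 0.37). These intervals leave room for changes of moderate size either way. The direction was not stable. With the muscle score as a covariate the 9 positive values turned negative, from -0.29 (Elane) to -0.02 (S100a8), and without mice 16, 18 and 19 the same 9 were negative, from -0.21 (Camp) to -0.01 (Mpo).

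**Figure D2:**
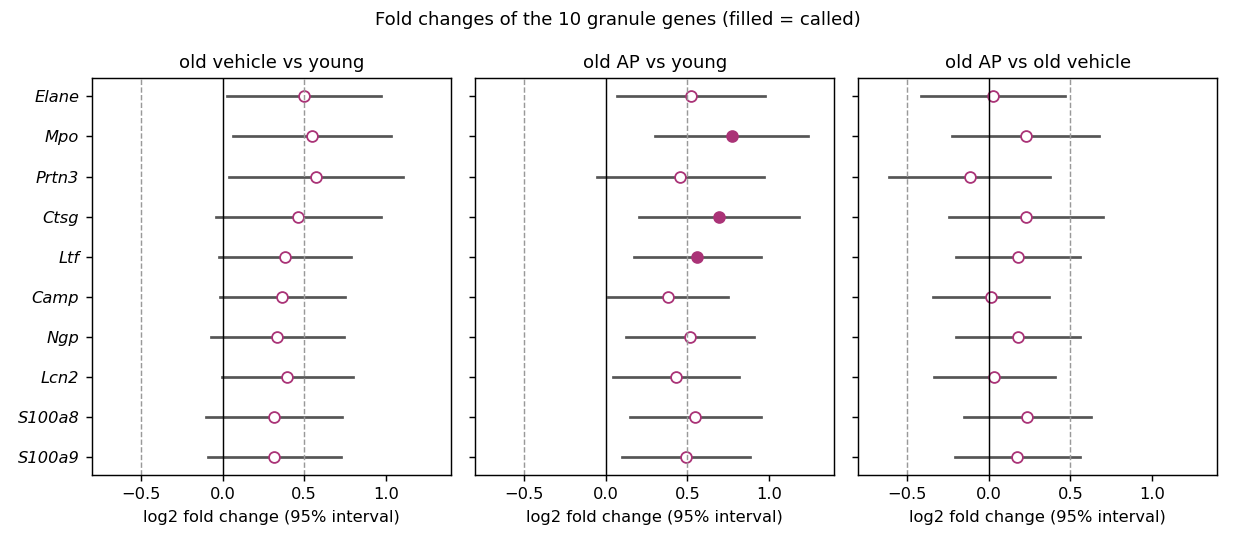
Log2 fold changes (points) with 95% intervals (lines) of the 10 granule genes in the 3 comparisons, with filled points for genes that passed the test and dashed lines at 0.5 and -0.5. Filled points are Mpo, Ctsg and Ltf in old AP against young, and the intervals of old AP against old vehicle all cross 0.

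Early and late genes were compared within each mouse by a late minus early index, the mean log2 CPM of Ltf, Camp, Ngp and Lcn2 minus that of Elane, Mpo, Prtn3 and Ctsg. The index was 2.73 ± 0.355 in young (SD, n = 12, 2.23 to 3.38), 2.57 ± 0.276 in old vehicle (SD, n = 13, 2.26 to 3.05) and 2.59 ± 0.302 in old AP mice (SD, n = 16, 2.09 to 3.28). The differences from young were smaller than the SD within groups. All 13 vehicle-treated and 14 of 16 AP-treated mice lay inside the young range, and 9 of 13 and 12 of 16 lay below the young median. Early genes were higher than the young median in 10 of 13 vehicle-treated and 12 of 16 AP-treated mice, and late genes in 11 of 13 and 13 of 16. The early and the late means rose and fell together over mice, with r = 0.90 and rho = 0.87 over 41 mice (0.80 in young, 0.92 in old vehicle and 0.90 in old AP mice, and 0.89 without mice 5 and 36). Old vehicle mouse 16 was lowest in the late mean of all mice (9.21 log2 CPM) and old AP mouse 19 was highest (11.8).

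**Figure D3:**
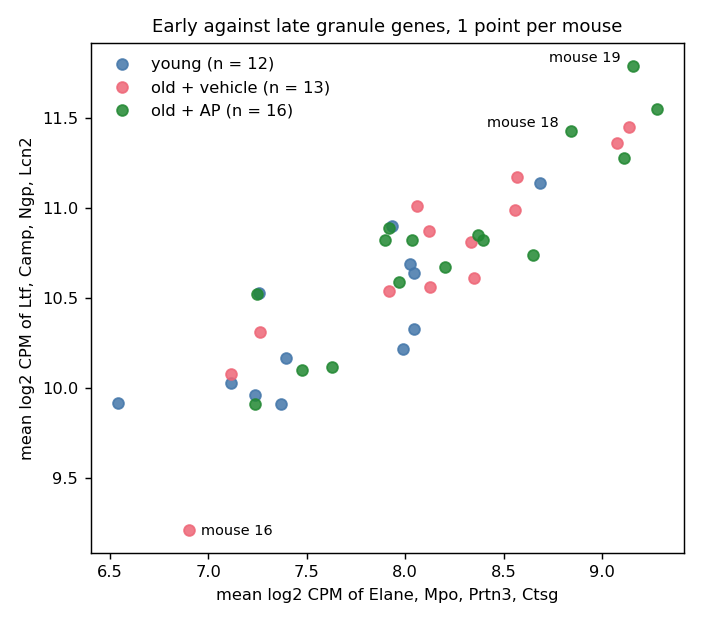
Mean log2 CPM of the 4 early granule genes (x axis) against that of the 4 late granule genes (y axis), 1 point per mouse coloured by group. The points follow 1 band from old vehicle mouse 16 at the bottom to old AP mouse 19 at the top, and the 3 groups overlap along it.

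By the median, members tracked each other more closely within the classes than across them, but single pairs overlapped. Over 41 mice, the 6 pairs of early genes had a median r of 0.94 (0.88 for Prtn3 and Ctsg to 0.98 for Elane and Prtn3), and the 6 pairs of late genes 0.96 (0.94 for Ltf and Camp to 0.99 for Ltf and Ngp). The 16 pairs of an early with a late gene had a median r of 0.89, from 0.73 for Prtn3 and Ngp to 0.93 for Mpo and Lcn2, and Ctsg was nearer to Lcn2 (0.93) than to Prtn3 of its own class (0.88). S100a8 and S100a9 sided with the late genes, with a median r of 0.97 to them and 0.85 to the early genes. With the group means taken out, the medians were 0.95 among early, 0.96 among late and 0.87 between early and late genes. Mice share depth and the fixed total of CPM, so these values are descriptions. The mouse at the top did not follow the classes. In old AP mice Elane, Mpo and Prtn3 were highest in mouse 5 and Ctsg, the late genes and the S100 pair in mouse 19. In old vehicle mice, mouse 2 was highest in 7 genes of all 3 classes, mouse 21 in Prtn3 and Lcn2 and mouse 23 in Camp, and in young mice mouse 39 was highest in all 10.

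**Figure D4:**
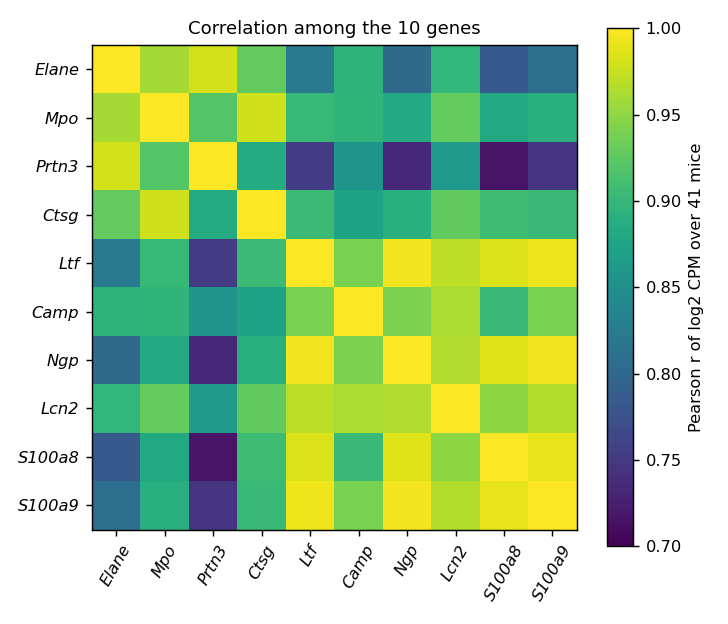
Pearson correlation of log2 CPM between each pair of the 10 granule genes over 41 mice, on a colour scale from 0.7 to 1. Values are high among the 4 early genes, and among the 4 late genes and the S100 pair. The 2 blocks are not cleanly apart, since Ctsg is nearer to Lcn2 (0.93) than to Prtn3 (0.88). The lowest values, 0.72 to 0.75, are those of Prtn3 with S100a8, Ngp, S100a9 and Ltf.

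The genes outside the list that tracked it most closely were taken by rank of Pearson r over the 41 mice, among 15541 tested genes with a mean of at least 1 CPM, with no test. For the mean of the early genes these were Prss57 (r = 0.97), the gene of another granule protease of the same family, then Hk3 (0.96), Card9, Hp, Cmtm7, Ncf4, Tkt, Pgd, Tmem180 and Fes (0.94). Hk3 encodes a hexokinase, Tkt and Pgd encode enzymes of the pentose phosphate pathway, and Ncf4 encodes a subunit of the NADPH oxidase. For the mean of the late genes they were Cd177 (r = 0.99), a neutrophil surface protein, then Trem3 (0.98), Mcemp1, Lin28a, Arhgdib, 4930438A08Rik, Itgb2l, Ltb4r1, Fcnb and Wfdc21 (0.97). Hp, listed with the secondary granule genes below, was nearer the early mean (r = 0.95, and 0.90 with the late mean), Ncf4 was nearer the late mean than the early mean it was picked for (r = 0.96 and 0.95), and Fcnb, listed with the promyelocyte genes, was nearer the late mean (r = 0.97, and 0.90 with the early mean). Of these 20 genes, Tmem180 and Wfdc21 were called higher in old vehicle against young mice, with log2 fold changes of 0.68 and 0.58, which is 2 of 20 beside 4.3% of all tested genes. In old AP against young mice 10 of 20 were called higher (Prss57, Tmem180, Trem3, Lin28a, Arhgdib, 4930438A08Rik, Itgb2l, Ltb4r1, Fcnb and Wfdc21), beside 3.73% of all tested genes. The 20 were chosen for likeness to the granule genes in these same mice, so neither count stands apart from the granule gene values.

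Other genes of the neutrophil programme were read as lists ordered by stage. Of 7 further promyelocyte and primary granule genes, 1 was called higher in old vehicle and 4 in old AP mice against young mice, and 0 lower. Over all tested genes 4.3% and 3.73% were called higher. Ms4a3, a membrane protein of granulocyte-monocyte progenitors, rose in both (log2 fold change 0.71, adjusted p = 0.0374, and 0.93, adjusted p = 0.00603). In AP-treated mice Cst7, which encodes the protease inhibitor cystatin F, rose by 0.96 (adjusted p = 0.00445), Prss57 by 0.76 (adjusted p = 0.0248) and the ficolin gene Fcnb by 0.67 (adjusted p = 0.0162). Ctsc, the protease that activates elastase, proteinase 3 and cathepsin G, passed the adjusted p in both but not the fold change (0.37 and 0.44). Of 12 further secondary granule genes, 1 was called higher with vehicle and 3 with AP, beside the same 4.3% and 3.73%. Chil3, a chitinase-like protein also made by macrophages, rose in both (0.58, adjusted p = 0.0424, and 0.71, adjusted p = 0.0112), and Cybb (0.60), the catalytic subunit of the NADPH oxidase and also a macrophage gene, and Itgb2l (0.55) rose with AP. The vehicle calls of Ms4a3 and Chil3 were lost with total counts in place of TMM (adjusted p = 0.0977 and 0.115), without the filter on low counts (0.0541 and 0.0624) and in 8 and 14 of the 41 fits that left out 1 mouse, with the highest adjusted p, 0.0965 and 0.107, without mouse 21. With AP, Itgb2l was lost with total counts (adjusted p = 0.0535), without the filter (0.0576), with the muscle covariate (log2 fold change 0.44) and in 12 of 41 fits. Prss57 was lost without mouse 5 or mouse 19 (adjusted p = 0.0512 and 0.057) and Cybb without mouse 19 (0.0536). Without mice 18 and 19 together the AP call of Fcnb was lost (adjusted p = 0.0665). So were those of Prss57, Cybb and Itgb2l (0.0885, 0.0897 and 0.149). Olfm4, in the secondary list, had values below 0 (-0.58 and -0.24, adjusted p = 0.118 and 0.541).

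Of 21 genes of tertiary granules and mature neutrophils, 1 was called higher in old vehicle and 7 in old AP mice against young mice, beside 4.3% and 3.73% of all tested genes. The vehicle count is near that share. Wfdc21 rose in both (0.58, adjusted p = 0.0425, and 0.72, adjusted p = 0.0102). The formyl peptide receptor genes Fpr1 (0.52, adjusted p = 0.0417) and Fpr2 (0.65, adjusted p = 0.0242), the membrane-anchored protease gene Mmp25 (0.63, adjusted p = 0.0248) and the neutrophil marker Ly6g (0.52, adjusted p = 0.0431) rose with AP. So did Stfa2 (1.51) and Stfa2l1 (0.80), stefin genes with near-identical copies whose counts are uncertain. Without mouse 24 Stfa2 was at 0.98 and still called, and Stfa2l1 was not called without mouse 24 (0.60, adjusted p = 0.0697) or mouse 19 (adjusted p = 0.0593). The vehicle call of Wfdc21 was lost with total counts (adjusted p = 0.127), without the filter (0.0616) and in 15 of 41 fits that left out 1 mouse (0.0912 without mouse 21). The AP calls of Ly6g and Fpr1 were lost with total counts (adjusted p = 0.0634 and 0.0584), without the filter (0.0647 and 0.0619), with the muscle covariate (log2 fold changes 0.41 and 0.43) and in 15 and 16 of 41 fits. Mmp25 was lost with the muscle covariate (log2 fold change 0.4975) and without mouse 19 (adjusted p = 0.0597), among others, and Fpr2 without mouse 19 (0.0538). Mmp9, the gelatinase of tertiary granules that osteoclasts also make, had log2 fold changes of 0.26 and -0.07 (adjusted p = 0.422 and 0.85). Median log2 fold changes with vehicle were 0.45, 0.28 and 0.23 for the promyelocyte, secondary and tertiary lists, and with AP 0.67, 0.38 and 0.48, and the difference between lists was not tested. Without mice 18 and 19, the genes called higher with AP were 2 of 7, 1 of 12 and 2 of 21, beside 2.61% of all genes in that fit, and 0 genes of these 3 lists were called between old AP and old vehicle mice.

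**Figure D5:**
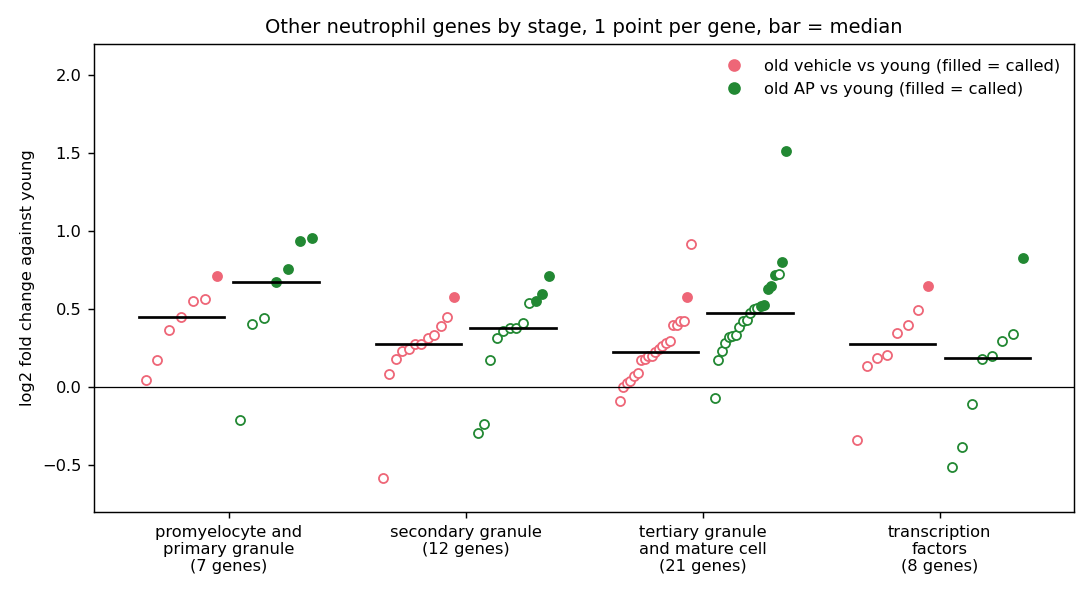
Log2 fold changes against young mice of 4 lists of other neutrophil genes, 1 point per gene, for old vehicle and old AP, with filled points for genes that passed the test and a bar at the list median. The bars lie between 0.19 and 0.67, and the filled points all lie above 0.

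Regulators of the programme were read next. Gfi1, a transcriptional repressor that granulocyte precursors need, rose in both old groups (0.65, SE 0.150, adjusted p = 0.00191, and 0.83, SE 0.145, adjusted p = 0.00011) and was the called member among 8 factors in either comparison, beside 4.3% and 3.73% of all tested genes. It was still called without mice 18 and 19 and in all 41 fits that left out 1 mouse. Cebpe, the C/EBP factor of secondary granule genes, had 0.40 and 0.34 (adjusted p = 0.201 and 0.257), Cebpa 0.19 and 0.20, and Spi1, the gene of PU.1, 0.34 and 0.30 (adjusted p = 0.146 and 0.191). Cebpb was the factor nearest to a call between old AP and old vehicle mice, with -0.88 (adjusted p = 0.0536).

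Of 3 genes of inhibitors of the granule proteases, 1 was called higher with vehicle and 2 with AP, beside the same shares of all genes, and 2 in each without mice 18 and 19. Serpina3n, whose product inhibits cathepsin G and elastase, rose by 2.38 in old vehicle (adjusted p = 0.000332) and 1.84 in old AP mice (adjusted p = 0.00334), although its near-identical relatives make the count uncertain. Its value with vehicle depended on mouse 16, since it was 1.38 without that mouse and was still called (adjusted p = 0.00164). Serpinb1a, an intracellular inhibitor of elastase, rose by 0.66 with AP (adjusted p = 0.0111, against 0.48 and adjusted p = 0.0731 with vehicle). Slpi, the secretory leukocyte protease inhibitor, had 0.72 and 0.59 (adjusted p = 0.0586 and 0.115).

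Of 6 genes of neutrophil growth and retention in the marrow 5 were tested, and 0 were called higher and 1 lower in each old group, beside 4.76% (vehicle) and 4.85% (AP) of all tested genes called lower. Cxcl12, the stromal chemokine that holds neutrophils in the marrow, fell by 0.61 in both (adjusted p = 0.00165 and 0.00123). Its receptor gene Cxcr4 had -0.12 and 0.27 (adjusted p = 0.678 and 0.277). Csf3, which encodes the growth factor G-CSF, had 0 to 9 counts per mouse and was not tested, while its receptor gene Csf3r had 0.09 and 0.38 (adjusted p = 0.786 and 0.132). Of 5 receptors for the granule and S100 proteins, 0 were called with vehicle, and 1 higher and 1 lower with AP, beside 4.3% and 3.73% of all genes called higher and the shares called lower given above. With AP, Fpr2, a receptor for the peptide cut from the Camp product, rose as given above, and Slc22a17, a receptor for lipocalin 2, fell by 0.56 (adjusted p = 0.0242), a call that was lost without mice 18 and 19 (adjusted p = 0.0603) and without mouse 41 (0.0516). The calprotectin receptor gene Tlr4 had 0.08 and 0.17 (adjusted p = 0.568 and 0.161). Neither these lists nor the factors and inhibitors held a gene called between old AP and old vehicle mice.

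Of the other marrow lineages, some had genes called lower in the age comparison and some did not. In old vehicle against young mice, 6 of 8 B cell genes, 3 of 8 tested erythroid genes and 4 of 5 megakaryocyte genes were called lower and 0 higher, beside 4.76% of all tested genes called lower, with median log2 fold changes of -1.01, -0.81 and -0.93, beside 0.39 for the 10 granule genes. In old AP against young mice, 1 of 8 B cell, 2 of 8 erythroid and 1 of 5 megakaryocyte genes were called lower, beside 4.85% of all tested genes, and without mice 18 and 19 0 of 8, 4 of 8 and 1 of 5, beside 4.24%. In that fit 6 of 8, 4 of 8 and 4 of 5 were called lower with vehicle, beside 5.16%. The shares of all tested genes called higher were 4.3% with vehicle and 3.73% with AP, and 4.69% and 2.61% without mice 18 and 19. The counts called higher that follow stand beside these, and those called lower beside the shares called lower. With vehicle, 0 of 6 T and NK cell genes, 0 of 5 basophil and mast cell genes and 0 of 6 eosinophil genes were called in either direction, with median log2 fold changes of 0.64, 0.36 and -0.29, although in the fit without mice 18 and 19, 3 of 6 T and NK cell genes were called higher with vehicle (median 0.64). With AP, 1 of 5 basophil and mast cell genes was called higher (Cpa3, 0.69, adjusted p = 0.0283), and 0 of 5 without mice 18 and 19. Of 6 monocyte genes, the nearest lineage, 0 and 1 (Ly6c2, 0.67, adjusted p = 0.0158) were called higher, and 0 of 6 in either without mice 18 and 19. Of 6 macrophage genes, 0 were called higher and 1 lower in each old group, also without mice 18 and 19. The gene called lower with all mice was Cd163 (-0.85, adjusted p = 0.00143 with vehicle, and -0.94, adjusted p = 0.00034 with AP). Of 5 stem and progenitor cell genes 0 were called in either. The summed B cell markers were 163 to 507 CPM in young, 73.4 to 326 CPM in old vehicle and 94.9 to 381 CPM in old AP mice. Of the bone cell lists, 3 of 5 osteoblast genes with vehicle and 5 of 5 with AP were called lower, beside 4.76% and 4.85% of all tested genes. Without mice 18 and 19, 3 of 5 were called lower with AP, beside 4.24%. Of 4 osteocyte genes, Sost (0.80 and 1.05) and Mepe (0.85 and 0.76) were called higher and Phex (-0.82 and -0.74) lower in both old groups, and 0 of 7 osteoclast genes were called in either. None of the matched markers of these lists was at 0 in any mouse, and the part of tissue composition in the granule gene result was not tested.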

How the data were processed

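RNA from centrifuged tibiae of 41 mice had been sequenced. Per the labels, the authors aligned the reads with TopHat2 2.0.6 to GRCm38 and counted them per gene with HTSeq, and they deposited raw, unnormalised counts for 43346 genes, with 1 column per mouse. The annotation release and the strand setting are not given in the sources used here. Overlapping genes and near-identical copies are therefore uncertain. Groups came from the labels, and 0 columns were left out. The least different pair of mice within a group still had 33.0 times the variance of counting error, so each mouse was 1 replicate.

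In R 4.3.3, edgeR 4.0.16 gave TMM factors, a filter on low counts that kept 19292 genes, and quasi-likelihood tests in one model of the 3 groups. Log2 CPM used a prior count of 2. Calls needed an adjusted p (Benjamini-Hochberg) under 0.05 together with a log2 fold change beyond 0.5. Alternatives were DESeq2 1.42.0, its size factors, total counts without TMM, all genes with a nonzero count, fits of 2 groups, calls on adjusted p alone, a muscle score as a covariate and each mouse left out. Fits without mice 16, 18 and 19 were chosen after seeing the data. The scripts were tested on simulated data. The 10 genes, the other lists and the motifs were chosen with earlier results of these data known. Named genes were the 10 members, the genes of the listed programmes and the 10 genes nearest in r to the early and to the late mean. Gene positions are those of GRCm38, and the promoter windows those of RefSeq (GRCm38.p6).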

Additional observations from a re-analysis of the deposited data

How the results depend on the processing

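The count of granule genes called higher in old AP against young mice was 3, and it depended on the processing. It was 5 with DESeq2, 1 with total counts in place of TMM and 1 without a filter on low counts. It was 5 without old vehicle mouse 16, 0 without old AP mice 18 and 19, 0 without all 3 of these mice, and between 1 and 6 when single mice were left out. With DESeq2 size factors in edgeR, without the fold change threshold, with 2 groups only or with the muscle covariate it was 3, 3, 4 and 2. The share of all genes called higher was 3.73% in the main fit and 2.61% without mice 18 and 19. For the other fits of old AP against young mice no such share was counted, so their counts stand alone. For old vehicle mice against young mice the count was 0 in all settings other than the muscle covariate. That fit gave 7, beside 4.66% of all genes called higher, and between the old groups the count was 0 in all settings. Between the old groups, directions turned. With the muscle covariate the log2 fold changes were -0.29 (Elane), -0.14 (Mpo), -0.12 (Ctsg), -0.079 (Ltf), -0.24 (Camp), -0.082 (Ngp), -0.22 (Lcn2), -0.021 (S100a8) and -0.087 (S100a9). Without mouse 16 they were -0.044 (Elane), -0.062 (Camp) and -0.039 (Lcn2), and without mice 18 and 19 -0.10, -0.13 and -0.10 in that order. Without all 3 mice they were -0.17 (Elane), -0.0068 (Mpo), -0.010 (Ctsg), -0.064 (Ltf), -0.21 (Camp), -0.073 (Ngp), -0.18 (Lcn2), -0.022 (S100a8) and -0.078 (S100a9). With 1 mouse left out, Elane ran from -0.082 to 0.11, Camp from -0.076 to 0.068 and Lcn2 from -0.058 to 0.13. The cause was not tested. The late minus early index differed from young by less than 1 SD in all settings (-0.20 to -0.10 with vehicle and -0.19 to -0.08 with AP, each mouse left out). No paired analysis was possible because the groups were made of different mice, with no pairing between them in the labels. The smallest count of any granule gene was 1823, so the spread between mice and not depth limits the precision.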

Other observations

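Eosinophils, the other granulocytes with large granule stores, were read with 6 genes (Epx, Prg2, Prg3, Ear1, Ear2, Ear6), of which the Ear genes are near-identical copies with uncertain counts. In old AP against old vehicle mice all 6 log2 fold changes were positive, with a median of 0.86, but 0 of 6 passed the adjusted p of edgeR. Epx, eosinophil peroxidase, had 0.92 (SE 0.383, adjusted p = 0.143). The summed level was 517 to 1452 CPM in young, 215 to 1370 CPM in old vehicle and 142 to 5632 CPM in old AP mice, with mouse 19 at the top. Without mice 18 and 19 the median log2 fold change was 0.31.

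The T and NK cell list had 4 of 6 genes called higher in old AP against young mice (Cd3e 1.12, Cd3g 1.16, Cd8a 1.59 and Nkg7 0.98 on the log2 scale), beside 3.73% of all tested genes, and 1 of 6 without mice 18 and 19, beside 2.61%. In old vehicle against young mice 0 of 6 were called higher, beside 4.3%, and 3 of 6 in that same fit without mice 18 and 19, beside 4.69%, with medians of 0.64 (vehicle) and 0.36 (AP) in it. The highest summed level, 427 CPM, was that of mouse 18.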
